A study of Homo sapiens with 12 samples.

Results

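The genes described here are the ZNF genes that gave a clear signal in BT549 cells, a human line of triple-negative breast cancer with mesenchymal traits. A gene was taken when its current symbol was ZNF followed by digits only and when its probe set, the one with the highest mean where a gene had several, had a mean log2 expression of at least 7 over the 12 arrays. Of the 433 ZNF genes measured, 235 met that threshold and 198 did not, among 17958 genes in all. Just inside it lay ZNF579 and ZNF695, at 7.0005 and 7.0015, and ZNF81 at 7.02. The nearest below were ZNF778, ZNF613 and ZNF322, at 6.9957, 6.9952 and 6.9951. The members were thus selected on their measured mean level, which is given as a description only.

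Most ZNF proteins carry arrays of C2H2 zinc fingers, small folds that each hold a zinc ion and read a few bases of DNA. A large share also carry a KRAB domain, which recruits the corepressor TRIM28 and, through it, the histone methyltransferase SETDB1 and heterochromatin proteins, so that many of these proteins silence transposable elements. Others lack KRAB and work as activators, chromatin cofactors, RNA-binding proteins or ribosome factors. The KRAB genes arose by repeated duplication and lie in clusters, above all on chromosome 19, so that neighbours are often close paralogs.

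The study asked how c-Jun, which forms the AP-1 transcription factor with its partners, shapes the response of these cells to TNFα, an inflammatory cytokine that acts through NF-κB and the kinase JNK. Over 72 h cells were depleted of c-Jun with pooled siRNAs or carried a control siRNA, and TNFα or vehicle was added for 6 h, with 3 arrays in each of the 4 groups. All groups were of the same line and all had been transfected, so that the cells called untreated here carry control siRNA and received vehicle. Nothing states that the replicates came from separate cultures, and a p-value here reflects only how these arrays scatter, which may be technical. In bulk RNA, fewer cells of a kind and less RNA per cell cannot be told apart.

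JUN itself had levels of 10.36, 10.35 and 10.36 with control siRNA and vehicle, and of 9.82, 9.85 and 9.81 with c-Jun siRNA and vehicle. With TNFα it reached 11.12, 11.05 and 11.05 with control siRNA and 10.36, 10.33 and 10.39 with c-Jun siRNA. The c-Jun siRNA arrays lay below the control siRNA arrays under both treatments (log2 differences of -0.52 ± 0.032 and -0.71 ± 0.032, SE). The TNFα response gene TNFAIP3 rose under both siRNAs, by 4.37 (control) and 3.24 (c-Jun). NFKBIA rose as well, by 3.1 and 1.82. With vehicle, both genes were already higher with c-Jun siRNA than with control siRNA, by 0.89 (TNFAIP3) and 1.27 (NFKBIA). With TNFα these siRNA differences were -0.24 and -0.013. The smaller rises with c-Jun siRNA thus went mostly with higher vehicle levels. All 5 mesenchymal markers had means between 11.4 and 12.7, and ESR1 and PGR lay under 4.4, whereas ERBB2 had a mean of 8.81. The epithelial, leukocyte and endothelial markers measured (3, 4 and 3) lay under 4.9. Among them CDH1, an epithelial adhesion gene, was higher with c-Jun siRNA (0.55 and 0.95). The summed log2 levels of the 3 epithelial markers rose by less than CDH1 alone. They went from 12.45 to 12.86 with vehicle and from 12.84 to 13.51 with TNFα. All 3 lay at low levels, and the part of such cells in the results was not tested. The third c-Jun siRNA and TNFα array carries a name that reads as a second run of the first, and the values below are given with the 2 averaged where that moves a count by more than 1.5 times.

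The promoters of 5 members are shown because they frame the responses described below. These are the 250 bases before the RefSeq start site in GRCh38.p14, written 5′ to 3′ on the strand of the gene. ZNF467 (chr7:149773589-149773838, minus strand) fell and ZNF670 (chr1:247078812-247079061, minus strand) rose with TNFα, and capitals mark a match to GGANTTTCC, a pattern bound by NF-κB, on either strand. ZNF737 (chr19:20565782-20566031, minus strand), ZNF93 (chr19:19900696-19900945, plus strand) and ZNF92 (chr7:65373605-65373854, plus strand) were all lower with c-Jun siRNA. Capitals in ZNF737 and ZNF93, and the later run of capitals in ZNF92, mark the longest stretch that these 3 share. The earlier run in ZNF92 is a match to TGANTCA, the pattern bound by AP-1.
ZNF467: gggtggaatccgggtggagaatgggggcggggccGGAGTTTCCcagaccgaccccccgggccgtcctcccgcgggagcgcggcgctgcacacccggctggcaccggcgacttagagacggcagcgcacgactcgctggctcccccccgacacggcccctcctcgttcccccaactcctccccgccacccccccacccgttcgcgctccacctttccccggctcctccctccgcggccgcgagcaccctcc
ZNF670: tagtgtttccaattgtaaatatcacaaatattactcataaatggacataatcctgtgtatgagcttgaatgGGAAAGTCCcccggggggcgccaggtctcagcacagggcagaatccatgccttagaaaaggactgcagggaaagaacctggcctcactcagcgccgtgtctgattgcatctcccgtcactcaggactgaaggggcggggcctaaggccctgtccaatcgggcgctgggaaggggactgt
ZNF737: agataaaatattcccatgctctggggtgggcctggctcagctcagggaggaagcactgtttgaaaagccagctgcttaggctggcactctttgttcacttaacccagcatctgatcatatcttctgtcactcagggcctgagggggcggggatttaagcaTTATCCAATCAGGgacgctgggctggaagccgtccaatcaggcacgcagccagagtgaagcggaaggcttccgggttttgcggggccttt
ZNF93: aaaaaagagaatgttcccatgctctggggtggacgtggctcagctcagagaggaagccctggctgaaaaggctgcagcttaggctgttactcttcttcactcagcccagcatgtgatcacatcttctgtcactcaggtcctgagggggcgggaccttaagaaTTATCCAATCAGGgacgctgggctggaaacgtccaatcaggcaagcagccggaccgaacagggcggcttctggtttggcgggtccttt
ZNF92: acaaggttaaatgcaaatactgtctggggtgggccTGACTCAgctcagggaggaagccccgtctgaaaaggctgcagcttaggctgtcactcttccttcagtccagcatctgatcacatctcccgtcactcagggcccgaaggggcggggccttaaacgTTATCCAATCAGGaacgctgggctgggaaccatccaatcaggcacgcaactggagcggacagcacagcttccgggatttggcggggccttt

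RefSeq promoters were found for 206 of the 235 members. The AP-1 pattern, searched on both strands of the 250 bases, occurred in 8 of them (3.88%), against 6.60% of all 27305 promoters in the table and 3.25% of those of the other genes of mean 7 or more. Of these 8 genes, ZNF83, ZNF845 and ZNF92 were lower with c-Jun siRNA under both treatments, ZNF512 was lower with vehicle, ZNF317 was lower with TNFα and ZNF460 was higher with vehicle. ZNF138 and ZNF239 were not called with c-Jun siRNA. The NF-κB pattern occurred in 3 members (1.46%, against 1.47% of all promoters and 1.54% of those of the other genes of mean 7 or more), which were ZNF467, ZNF670 and ZNF91. The cyclic AMP response element TGACGTCA occurred in 9 members (4.37%, against 1.77% of all promoters and 3.18% of those of the other genes of mean 7 or more). CCGGAAGT, a pattern of the ETS factors, occurred in 25 members (12.1%, against 3.64% of all promoters and 8.15% of those of the other genes of mean 7 or more). The 13-base stretch shared by ZNF737, ZNF93 and ZNF92 holds the letters CCAAT, and it stood in 11 members' promoters and in 21 of all promoters, 16 of which belong to ZNF genes. The 8 other members that carry it, ZNF43, ZNF90, ZNF107, ZNF138, ZNF208, ZNF267, ZNF626 and ZNF680, all had log2 differences below 0 with c-Jun siRNA under both treatments, and 4 of them passed the test with vehicle and 3 with TNFα. Of ZNF208's other probe sets, that of mean 7.27 was also called lower with vehicle (-0.20) and that of mean 3.30 was not called (0.066). Over all members 69.8% and 68.1% lay below 0 and 28.1% and 34.5% were called lower, and the stretch itself was taken from 3 genes chosen for being lower with c-Jun siRNA. A match to letters shows neither binding nor control.

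Seen across the 12 arrays, the members as a set sat highest in the untreated control cells and lowest where both c-Jun siRNA and TNFα had been given. Their median log2 level was 8.01 to 8.03 on the control siRNA and vehicle arrays, 7.90 to 7.93 with TNFα alone, 7.93 to 7.99 with c-Jun siRNA alone and 7.80 to 7.86 with both. The 8691 other genes of mean 7 or more had medians of 9.20 to 9.24 on every array. The ranges of the members did not overlap between the untreated control arrays and any other group, nor between the doubly treated arrays and any other group. Those of the other genes did not overlap between the untreated arrays (9.219 to 9.222) and any other group either. They were 9.213 to 9.216 with TNFα alone, 9.224 to 9.239 with c-Jun siRNA alone and 9.204 to 9.217 with both. The median of all genes was 6.976 to 6.982 on the untreated arrays and 6.925 to 6.938 on the doubly treated ones. For all genes too, the doubly treated arrays thus lay below every other array, the next lowest being at 6.944. Member by member, 174 of the 235 had a lower mean with both agents than with neither, with a median difference of -0.15. The lowest of the 4 group means fell in the doubly treated cells for 103 members and in the untreated control cells for 31. These counts were not made over the other genes of mean 7 or more, which also fell more often than they rose with TNFα.

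**Figure D1:**
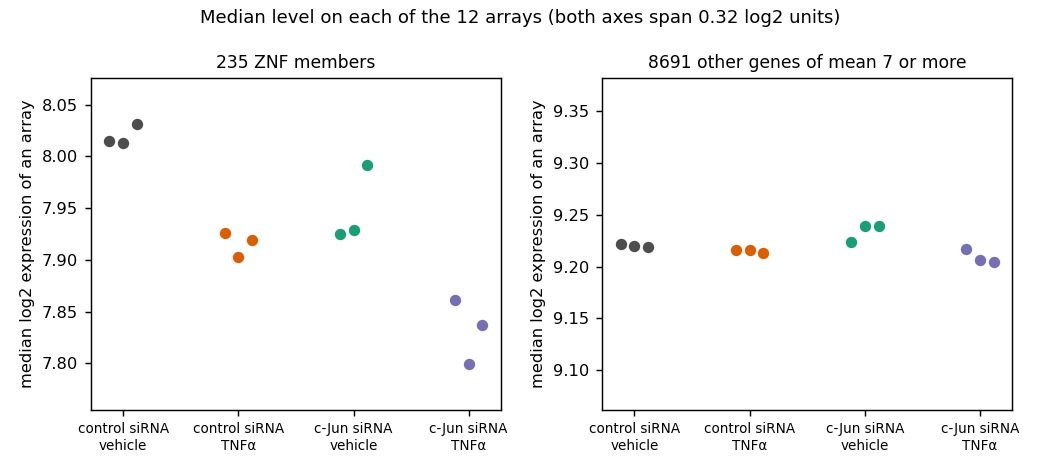
Median log2 expression of the 235 ZNF members (left) and of the 8691 other genes of mean 7 or more (right) on each array, with 3 arrays per group and the same axis span in both panels. The members' medians run from 8.01 to 8.03 in untreated control cells down to 7.80 to 7.86 with c-Jun siRNA and TNFα. Those of the other genes lie between 9.20 and 9.24, with a smaller step between the same groups.

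Each comparison was tested with limma over all 17958 genes, and a gene was called at an adjusted p under 0.05. Levels and differences are on the log2 scale, and errors of differences are standard errors. TNFα in control siRNA cells lowered 73 members (31.1%) and raised 33 (14.04%). Among the other genes of mean 7 or more it lowered 34.3% and raised 22%, and among all genes 21.9% and 13.8%. The other genes were brighter on the whole. Among other genes in the level ranges of the dimmest, middle and brightest members, 37.4%, 38.8% and 32.8% fell, against 25.3%, 27.3% and 40.5% of the members, and 18.6%, 19.8% and 23.1% rose, against 10.1%, 13.0% and 18.99%. The median difference of the members was -0.061, against -0.043 for the other genes. It depended on scaling, with -0.032 against -0.041 after quantile normalisation and -0.032 against -0.015 with each array centred on its median. Most called differences were small, and only 10 of the 106 reached 0.5 in size. Within the only position column of the array names that both groups share, 27 members were higher and 56 lower.

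The largest falls were those of ZNF395, ZNF521, ZNF467 and ZNF362. ZNF395, a transcription factor known from hypoxia and interferon responses, had levels of 9.29, 9.22 and 9.18 with vehicle and 7.79, 7.69 and 7.64 with TNFα in control siRNA cells. With c-Jun siRNA its levels were 8.96, 9.08 and 8.92 with vehicle and 7.63, 7.61 and 7.78 with TNFα. The TNFα arrays lay far below the vehicle arrays under both siRNAs (differences of -1.52 ± 0.058 and -1.32 ± 0.058, limma adjusted p = 2.3e-13 and 3.0e-12), which in control siRNA cells is a level that fell by 65.2%.

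ZNF521, a many-fingered cofactor of stem and progenitor cells that antagonises early B-cell factor, had levels of 8.32, 8.31 and 8.32 in untreated control cells and 6.97, 7.08 and 7.03 with TNFα. With c-Jun siRNA it stood at 7.65, 7.59 and 7.64 with vehicle and 6.76, 6.54 and 6.60 with TNFα. The 4 groups did not overlap, and ZNF521 was lower in all 4 pairwise comparisons, with differences of -1.29 and -0.99 with TNFα and of -0.69 and -0.39 with c-Jun siRNA (adjusted p at most 5.5e-05). ZNF362, a relative of ZNF384, followed the same order. Its levels were 10.70, 10.57 and 10.69 untreated, 9.79, 9.81 and 9.88 with TNFα, 10.19, 10.18 and 10.15 with c-Jun siRNA and 9.51, 9.41 and 9.52 with both. Again no array of one group overlapped another group, and the differences with TNFα were -0.82 under control siRNA and -0.70 under c-Jun siRNA.

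ZNF467, a factor that steers mesenchymal progenitors between bone and fat, fell from 7.79, 7.63 and 7.55 to 6.56, 6.48 and 6.53 with control siRNA. With c-Jun siRNA it fell from 7.75, 7.87 and 7.63 to 6.80, 6.78 and 6.67. Its differences with TNFα were -1.14 ± 0.072 and -1.0003 ± 0.072, and unlike ZNF521 and ZNF362 it was not lower with c-Jun siRNA under either treatment (0.092, not called, and 0.23, called higher). The other members of the 10 largest falls with control siRNA were ZNF766 (-0.68), ZNF570 (-0.62), ZNF737 (-0.60), ZNF610 (-0.50), ZNF415 (-0.46) and ZNF160 (-0.45), all on chromosome 19.

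The rises were led by ZNF267, ZNF670, ZNF140 and ZNF136, all KRAB genes. ZNF267 went from 7.88, 7.89 and 7.81 to 8.67, 8.71 and 8.67 with TNFα in control siRNA cells, and from 7.81, 7.85 and 7.86 to 8.50, 8.32 and 8.42 with c-Jun siRNA. The vehicle groups overlapped each other and both TNFα groups lay above them, with the c-Jun siRNA arrays the lower of these (0.82 ± 0.050 against 0.57 ± 0.050). ZNF670 rose by 0.59 ± 0.095 and 0.41 ± 0.095 under the respective siRNAs, ZNF140 by 0.58 ± 0.075 and 0.35 ± 0.075, and ZNF136 by 0.49 ± 0.090 and 0.43 ± 0.090. ZNF202, a SCAN and KRAB protein that represses genes of lipid metabolism, rose by 0.46 and 0.25. The remaining leading rises with control siRNA were ZNF618 (0.43), ZNF583 (0.41), ZNF35 (0.38), ZNF655 (0.36) and ZNF710 (0.36).

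**Figure D2:**
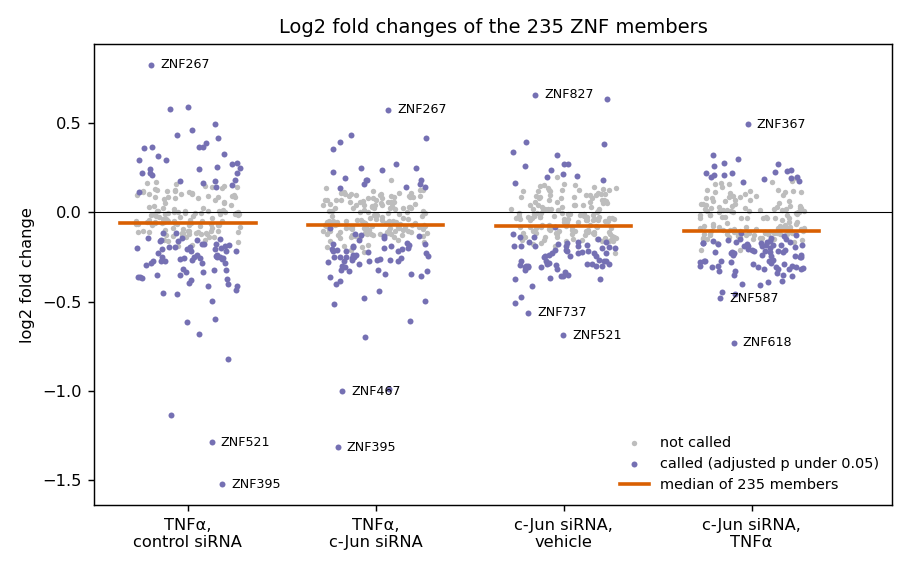
Log2 fold changes of the 235 members in the 4 pairwise comparisons, each point a gene, with called genes in violet, others in grey and the median as an orange line. All 4 medians lie below 0, from -0.061 to -0.11, and ZNF395 and ZNF521 are the lowest points with TNFα in control siRNA cells.

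In c-Jun siRNA cells TNFα lowered 63 members (26.8%) and raised 19 (8.09%). The other genes of mean 7 or more were lower in 29.4% and higher in 17.9%, and all genes in 18.3% and 11.3%. The median difference was -0.074 for the members and -0.036 for the other genes, and -0.026 and 0.013 with each array centred on its median. The split of calls depended on scaling too: falls made up 76.8% of the calls as deposited, 67.1% after quantile normalisation (47 lower, 23 higher) and 61.1% after centring (44 lower, 28 higher), while centring took the other genes from 62.2% to 46.5%. The rises numbered 11 without the first c-Jun siRNA and vehicle array and 12 without the second. No position column of the array names holds arrays of both groups. With the column as a block 2 members were higher (0.85%) and 19 lower (8.09%), against 9.32% and 12.3% of the other genes. The part of position in this result was not tested further.

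The 2 TNFα comparisons share no array. Of the members lower with control siRNA, 46 were also lower with c-Jun siRNA, which is 63.0% of the former and 73.0% of the latter. Of those higher, 14 were higher in both (42.4% and 73.7%). For the other genes of mean 7 or more these shares were 70.2% and 81.9% lower and 66.8% and 82.2% higher. Over the 235 members the 2 sets of differences had a Pearson correlation of 0.85 (0.93 over the other genes), across genes, which are not independent replicates. Among the members ZNF827 alone was called in opposite directions, against 29 of the 8691 other genes. The 10 largest falls with c-Jun siRNA took in ZNF532 (-0.61), ZNF292 (-0.50) and ZNF174 (-0.48), which were also called lower with control siRNA (-0.35, -0.40 and -0.32). Its 10 largest rises took in ZNF841 (0.39), ZNF28 (0.27), ZNF773 (0.24), ZNF583 (0.24) and ZNF229 (0.22). A probe set that ZNF841 shares with ZNF836 was not called in this comparison (0.040). With control siRNA the shared probe set was lower with TNFα (-0.28), whereas ZNF841's own was higher (0.24).

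With c-Jun siRNA the members' calls leaned towards lower levels under both treatments, beside an even split among other genes. With vehicle, 66 members were lower (28.1%) and 15 higher (6.38%), whereas the other genes of mean 7 or more were split evenly, with 23.1% lower and 24.5% higher. Among all genes 14.5% were lower and 14.4% higher. With TNFα, 81 members were lower (34.5%) and 19 higher (8.09%), against 22.9% and 23.6% of the other genes and 14.4% and 14.1% of all genes. Falls thus made up 81.5% and 81.0% of the members' calls and 48.5% and 49.3% of the other genes' calls. The medians were -0.080 and -0.11 for the members and -0.0050 and -0.0014 for the other genes. A difference of this size between the sets was not put to a test of its own, because the members were chosen with results of these data known.

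The lean towards lower levels was also seen at each range of brightness. Cut by mean level into 3 classes, the members were lower and higher with c-Jun siRNA and vehicle in 18 and 4 of the 79 dimmest, 20 and 6 of the 77 in between and 28 and 5 of the 79 brightest. Other genes in the same level ranges were lower in 20.02%, 20.5% and 24.2% and higher in 22.7%, 24.3% and 24.9%. With centred arrays falls still made up 81.9% of the members' calls with vehicle and 73.1% with TNFα. With the position column as a block, 30 members (12.8%) were lower and 10 (4.26%) higher with vehicle, against 15.1% and 17.0% of the other genes. Under TNFα, with this block, 75 (31.9%) were lower and 18 (7.66%) higher, against 22.1% and 22.4%. With vehicle the members' share of falls was thus below that of the other genes, and so was their share of rises. Position column 5, the only one both vehicle groups share, holds 1 control siRNA array and 3 c-Jun siRNA arrays. There the median difference was -0.077 for the members and -0.0072 for the other genes. With TNFα, column 7 holds 2 control siRNA arrays and 1 c-Jun siRNA array, with medians of -0.11 and 0.00065. Column 9 holds 1 and 2, with medians of -0.10 and -0.0040. Each of these columns has an arm of 1 array. The c-Jun siRNA arrays in column 9 are the first and the third, which may be runs of one sample. These medians, and any calls within these columns, thus say little about the members.

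**Figure D3:**
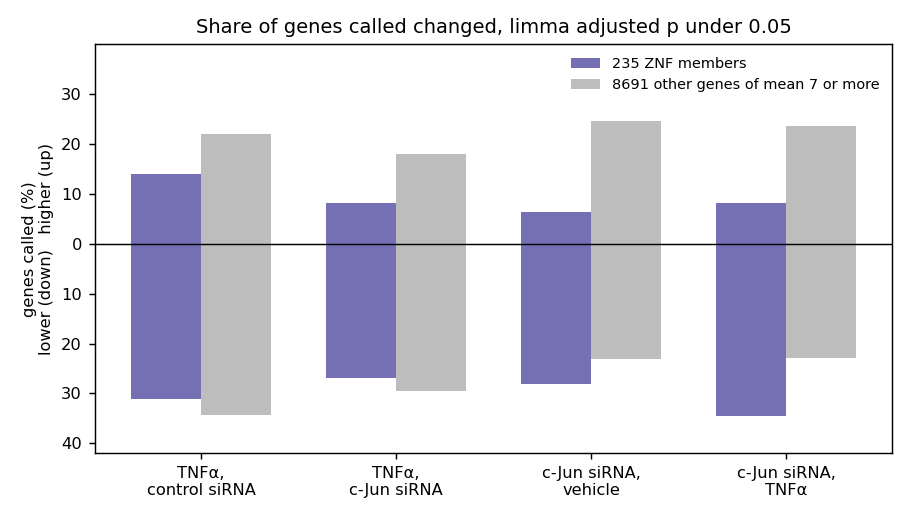
Share of the 235 members (violet) and of the 8691 other genes of mean 7 or more (grey) called higher (bars above 0) or lower (bars below 0) in each comparison, in percent. With c-Jun siRNA and vehicle 28.1% of members were lower and 6.38% higher, against 23.1% and 24.5% of the other genes.

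Beside ZNF521 and ZNF362, the larger falls with c-Jun siRNA took in ZNF737, ZNF93 and ZNF587, KRAB genes of chromosome 19. ZNF737 had levels of 10.36, 10.39 and 10.31 in untreated control cells and 9.77, 9.75 and 9.84 with c-Jun siRNA. With TNFα they were 9.63, 9.91 and 9.71 with control siRNA and 9.34, 9.47 and 9.23 with c-Jun siRNA. The siRNA groups did not overlap under either treatment (differences of -0.56 ± 0.063 and -0.40 ± 0.063). ZNF93, which represses LINE-1 retrotransposons, stood at 9.18, 9.27 and 9.25 untreated, 8.81, 8.77 and 8.82 with TNFα, 8.79, 8.57 and 8.80 with c-Jun siRNA and 8.70, 8.56 and 8.64 with both. Only its untreated control arrays stood apart from all others: the differences with c-Jun siRNA were -0.51 under vehicle and -0.16 under TNFα, and the gap between these passed the interaction test (0.35 ± 0.080, adjusted p = 0.013).

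ZNF587, a KRAB protein that acts with its near copy ZNF417 on HERVK elements, went from 8.56, 8.53 and 8.51 to 8.04, 8.18 and 8.26 with vehicle. With TNFα it went from 8.66, 8.66 and 8.70 to 8.21, 8.21 and 8.15. The groups were apart in both cases (-0.37 ± 0.051 and -0.48 ± 0.051), and its other probe set gave the same calls with c-Jun siRNA. ZNF417 itself, whose probes could also bind transcripts of ZNF587, was not called (-0.16 and -0.12). Other leading falls with vehicle were ZNF611 (-0.41), ZNF706 (-0.37), ZNF253 (-0.37), ZNF273 (-0.36) and ZNF432 (-0.36), and with TNFα ZNF618 (-0.73), ZNF35 (-0.46), ZNF611 (-0.45), ZNF646 (-0.41), ZNF79 (-0.39), ZNF845 (-0.36) and ZNF107 (-0.35).

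The few rises with c-Jun siRNA were led by ZNF827 and ZNF367. ZNF827, which brings the NuRD complex to telomeres, had levels of 8.47, 8.47 and 8.47 untreated, 9.08, 9.19 and 9.12 with c-Jun siRNA, 8.70, 8.65 and 8.69 with TNFα and 8.995, 8.96 and 9.05 with both. The 4 groups did not overlap. c-Jun siRNA raised it by 0.66 ± 0.042 with vehicle and 0.32 ± 0.042 with TNFα, while TNFα raised it with control siRNA (0.21) and lowered it with c-Jun siRNA (-0.13). ZNF367 went from 7.59, 7.58 and 7.75 to 8.22, 8.23 and 8.36 with vehicle and from 7.85, 7.74 and 7.78 to 8.34, 8.23 and 8.26 with TNFα. Its siRNA groups were apart under both treatments (0.63 ± 0.060 and 0.49 ± 0.060), and neither TNFα comparison called it (0.15 and 0.0036). ZNF275, ZNF264, ZNF318 and ZNF544 were higher under both treatments as well, by 0.39, 0.38, 0.26 and 0.23 with vehicle and 0.27, 0.23, 0.26 and 0.27 with TNFα. The remaining leading rises were ZNF141 (0.34), ZNF281 (0.32), ZNF460 (0.27) and ZNF484 (0.27) with vehicle and ZNF594 (0.30), ZNF467 (0.23), ZNF528 (0.22) and ZNF76 (0.22) with TNFα.

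The c-Jun siRNA comparisons under vehicle and under TNFα share no array. In both, 44 members were lower (66.7% and 54.3% of the respective lists) and 10 were higher (66.7% and 52.6%), and none was called in opposite directions. For the other genes of mean 7 or more these shares were 66.0% and 66.5% lower and 70.7% and 73.6% higher. Of the 8691 other genes 93 were called in opposite directions. Across genes the correlation of the 2 sets was 0.68 over the members and 0.82 over the other genes. Over the 4 pairwise comparisons 173 members were called at least once and 62 never. The same count was not made over the other genes. In either TNFα comparison 127 of the 235 members were called, against 5606 of the 8691 other genes. In either c-Jun siRNA comparison the numbers were 127 and 5257. The 11 called lower in all 4, a group picked out after the values were seen, were ZNF92, ZNF253, ZNF292, ZNF358, ZNF362, ZNF426, ZNF486, ZNF521, ZNF623, ZNF714 and ZNF737. No member was higher in all 4. ZNF394 was the one member higher in both TNFα comparisons (0.22 and 0.19) and lower in both c-Jun siRNA comparisons (-0.17 and -0.19).

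On chromosome 19 lay 108 members (46.0%), of which 34 were lower and 5 higher with c-Jun siRNA and vehicle, against 32 and 10 of the 127 members elsewhere. With TNFα the counts were 36 and 6 against 45 and 13. The 502 other genes of mean 7 or more on chromosome 19 were lower in 26.9% and higher in 20.1% with vehicle, and lower in 23.5% and higher in 20.9% with TNFα. The lean was thus present among members on and off that chromosome.

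Members whose starts lie less than 1 Mb from the next were joined into runs, and 9 runs held at least 5 members, 113 in all. This grouping was made after the values were seen. The run of 18 genes at chromosome 19:19668153-22091480, the cluster around ZNF93, ZNF253, ZNF486, ZNF714, ZNF737 and ZNF257, had 11 lower and none higher with c-Jun siRNA under each treatment (limma; medians of -0.22 and -0.15). Over all members 28.1% and 34.5% were lower. This run also had 9 lower with TNFα under each siRNA, and 1 higher with control siRNA. The run of 5 genes at chromosome 7:64499069-65401136, which holds ZNF92, ZNF107, ZNF138, ZNF273 and ZNF680, had 3 lower and none higher under each treatment, and all 5 differences were below 0. The 20-gene run at chromosome 19:51571283-53458261, with ZNF83, ZNF611, ZNF432 and ZNF845, had 11 lower and 1 higher with vehicle and 7 and 1 with TNFα.

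The 29-gene run that ends chromosome 19, at 55576774-58475436, differed from these in its counts, with 2 lower and 4 higher with vehicle and 6 and 3 with TNFα (medians of 0.018 and -0.015). It holds both ZNF587, among the strongest falls, and ZNF264, ZNF460 and ZNF544, among the rises. On chromosome 16, the run of 9 genes at 30524004-31917357 had 4 lower with vehicle and 7 with TNFα, and none higher. ZNF267, the strongest rise with TNFα, lies in it. Genes of one run share ancestry and sequence, and how far a probe set also measures a paralog was not tested. Coordinates are those of the RefSeq genes in GRCh38.p14.

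**Figure D4:**
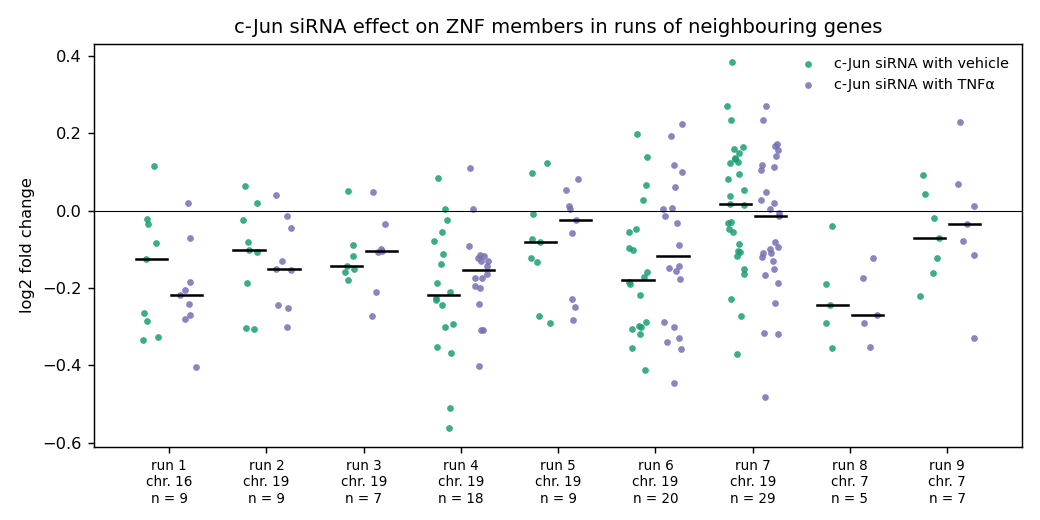
Log2 fold changes with c-Jun siRNA under vehicle (green) and TNFα (violet) for members in the 9 runs of neighbouring genes, each point a gene and each black line a median, with chromosome and number of genes under the axis. Runs 4 and 8 lie almost wholly below 0, with medians of -0.22 and -0.25 under vehicle, and run 7 is spread around 0.

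By function, in lists drawn up from textbook roles, the members listed as transcription and chromatin factors (19 of 22 reached a mean of 7) counted 9 lower and 4 higher with TNFα and control siRNA, and 10 and 4 with TNFα and c-Jun siRNA. The other genes of mean 7 or more also fell more often than they rose in these comparisons (34.3% against 22%, and 29.4% against 17.9%). ZNF532, ZNF592 and ZNF687, which bind the chromatin reader ZMYND8 as one complex, were lower in both TNFα comparisons (-0.35, -0.29 and -0.14 with control siRNA, -0.61, -0.27 and -0.25 with c-Jun siRNA). ZNF292, a gene of neural development, was lower in all 4 comparisons. ZNF281, a partner of MYC and NuRD tied to mesenchymal transition, rose in both (0.36 and 0.14), as did ZNF24 (0.12 and 0.16) and ZNF202. ZNF143, which anchors promoter loops, was called in none (-0.097, -0.11, -0.018 and -0.033), and neither was ZNF263. With c-Jun siRNA, 5 of the 19 were lower and 2 higher with vehicle and 7 and 1 with TNFα. Over all members these shares were 28.1% and 6.38%, and 34.5% and 8.09%. ZNF644, a partner of the methyltransferase EHMT2, was among the lower under both treatments (-0.27 and -0.23). ZNF274, which recruits SETDB1 to the 3′ ends of ZNF genes, was called once, higher with TNFα in c-Jun siRNA cells (0.14).

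Of the 11 listed KRAB repressors of retroelements and of imprinting, 9 were members. They were lower and higher in 2 and 3 cases with TNFα and control siRNA, in 3 and 1 with TNFα and c-Jun siRNA, in 3 and 1 with c-Jun siRNA and vehicle and in 4 and 1 with c-Jun siRNA and TNFα. Over all members the shares lower and higher in these comparisons were 31.1% and 14.04%, 26.8% and 8.09%, 28.1% and 6.38%, and 34.5% and 8.09%. So few genes give no share of their own to set against these. ZNF91, the repressor of SVA elements, was lower with c-Jun siRNA (-0.25 and -0.17) and not called with TNFα (-0.12 and -0.032). ZNF445, a guardian of imprinted regions, was lower with both agents combined, in the 2 comparisons that hold the doubly treated cells (-0.19 and -0.21). ZNF141 went the other way with c-Jun siRNA, being higher under both treatments (0.34 and 0.19). ZNF382 was lower with TNFα (-0.27 and -0.19), ZNF649 was called higher with TNFα in control siRNA cells (0.18) without a difference between siRNAs that passed (-0.23, adjusted p = 0.17), and ZNF417 was never called.

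Of the 8 listed proteins of RNA, ribosomes and mitosis 7 were members. With TNFα 2 were higher and 1 lower under control siRNA and 1 was higher under c-Jun siRNA, and with c-Jun siRNA 1 was higher under vehicle and 1 lower under TNFα. Over all members 14.04% were higher and 31.1% lower, and 8.09% and 26.8%, in the TNFα comparisons. With c-Jun siRNA 6.38% were higher and 28.1% lower under vehicle, and 8.09% and 34.5% under TNFα. ZNF593, a ribosome biogenesis factor, rose with TNFα in control siRNA cells (0.22), ZNF622, another, with TNFα in c-Jun siRNA cells (0.18), and ZNF346, which binds double-stranded RNA, fell with TNFα in control siRNA cells (-0.16). ZNF598, the ligase that marks collided ribosomes, and ZNF326, of the splicing and elongation complex DBIRD, were called in no comparison. ZNF638, which silences unintegrated retroviral DNA, was lower with c-Jun siRNA and TNFα (-0.18). ZNF207, the listed gene that was not a member, had a mean of 4.48 on its own probe set. A probe set shared by ZNF207 and at least 1 other gene had a mean of 11.2. It was called higher with TNFα (0.14 and 0.21) and lower with c-Jun siRNA (-0.18 and -0.11). The oncogene ZNF217, amplified in many breast cancers, fell slightly with TNFα (-0.19 and -0.088) and with c-Jun siRNA and vehicle (-0.084). ZNF350, a partner of BRCA1, rose with TNFα in control siRNA cells (0.27) and was lower with c-Jun siRNA under TNFα (-0.33).

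The 10 members with the highest means were ZNF257 (11.2), ZNF217, ZNF593, ZNF121, ZNF146, ZNF384, ZNF281, ZNF532, ZNF362 and ZNF644 (9.97). Levels of different probe sets cannot be ranked as transcript amounts. Of these, ZNF257, ZNF146, ZNF384, ZNF362 and ZNF644 were lower with c-Jun siRNA under both treatments, for example ZNF146 (-0.12 and -0.28) and ZNF384 (-0.15 and -0.12). The other probe set of ZNF257, of mean 6.91, was called lower with c-Jun siRNA under TNFα (-0.43) but not under vehicle (-0.25). That of ZNF384, of mean 6.00, was called under neither treatment (0.13 with vehicle and -0.19 with TNFα). ZNF121 rose with TNFα in control siRNA cells (0.17).

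The interaction asks whether the TNFα effect differs between the siRNAs. It passed for 13 members: 8 lower (3.40%), where the TNFα effect was more negative or less positive with c-Jun siRNA, and 5 higher (2.13%). Among the other genes of mean 7 or more 6.09% were lower and 2.9% higher, and among all genes 3.59% and 1.88%, so the members' shares were near or below the background. Falls made up 61.5% of these calls as deposited and 46.2% with centred arrays. These counts were sensitive. With the position column as a block 2 were lower and none higher (limma, 13 lower and 15 higher at an unadjusted p under 0.05), and averaging the repeated array left 3 higher. Leaving out single arrays left 2 to 6 higher and 5 to 8 lower: the rises came to 2 without the second control siRNA and vehicle or the third c-Jun siRNA and TNFα array, and to 3 without the first control siRNA and vehicle, the first or second control siRNA and TNFα, the first or second c-Jun siRNA and vehicle or the first c-Jun siRNA and TNFα array, and the falls came to 5 without the first control siRNA and vehicle or the third control siRNA and TNFα array.

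ZNF618, a partner of UHRF2 on hydroxymethylated DNA, gave the most negative interaction. Its levels were 8.63, 8.61 and 8.65 untreated, 9.18, 9.01 and 9.01 with TNFα, 8.39, 8.28 and 8.31 with c-Jun siRNA and 8.48, 8.33 and 8.20 with both. TNFα raised it in control siRNA cells (0.43), its c-Jun siRNA groups overlapped (0.012), and the difference between these was -0.42 ± 0.088 (limma adjusted p = 0.0061). ZNF35 had the same shape, with 8.01, 8.07 and 8.13 untreated, 8.45, 8.51 and 8.41 with TNFα, 7.95, 7.90 and 8.03 with c-Jun siRNA and 8.02, 8.02 and 7.96 with both. Its TNFα and control siRNA arrays lay above all others, and the interaction was -0.34 ± 0.072. ZNF655 (-0.27) and ZNF106 (-0.30), an RNA-binding protein of muscle and nerve, likewise were called higher with TNFα in control siRNA cells and not with c-Jun siRNA, and for ZNF281 the rise was smaller with c-Jun siRNA (-0.22 ± 0.050).

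In the positive direction, ZNF462, a developmental chromatin factor, stood at 9.94, 9.96 and 9.88 untreated, 9.70, 9.76 and 9.71 with TNFα, 9.52, 9.69 and 9.69 with c-Jun siRNA and 9.77, 9.77 and 9.67 with both. The untreated control arrays lay above all others, so that each agent lowered it alone (-0.20 and -0.29) and neither did on top of the other (0.10 and 0.015, not called), with an interaction of 0.30 ± 0.066. ZNF610 and ZNF93 also had untreated control arrays above all others (0.37 and 0.35). The interaction of ZNF827, -0.34 ± 0.059, had the smallest adjusted p (0.0014).

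The corepressors that KRAB proteins work with were also looked up. Of 25 listed corepressor and heterochromatin genes 24 were measured, all with a mean of at least 7, and with c-Jun siRNA 6 were lower and 5 higher with vehicle and 3 lower and 7 higher with TNFα, beside 23.1% and 24.5%, and 22.9% and 23.6%, of the other genes of mean 7 or more. TRIM28 was called in 1 of the 5 comparisons, higher with c-Jun siRNA under TNFα (0.12), and SETDB1 in none. With TNFα 12 were lower and 4 higher in control siRNA cells and 9 and 1 in c-Jun siRNA cells, with EHMT2 the lowest (-0.58 and -0.58). Of the other genes 34.3% were lower and 22% higher with TNFα in control siRNA cells, and 29.4% and 17.9% in c-Jun siRNA cells. The interaction called 1, lower. The 60 ZBTB, ZSCAN, ZKSCAN, ZFP and KLF genes of mean 7 or more, zinc finger families under other names, were lower and higher with c-Jun siRNA in 22 and 7 cases with vehicle and 19 and 3 with TNFα. Falls thus outnumbered rises here too, against the near-even shares of the other genes given above. The lean was not confined to genes named ZNF. The families differed in their counts, and the 10 ZFP genes among them were lower in none and higher in 2 cases with c-Jun siRNA and TNFα (limma). With TNFα the 60 counted 14 lower and 13 higher in control siRNA cells and 15 and 9 in c-Jun siRNA cells, and 4 and 2 for the interaction. The other genes' shares with TNFα are those given above, and for the interaction 6.09% were lower and 2.9% higher.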

How the data were processed

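BT549 samples were measured on 12 Affymetrix gene arrays, 3 in each of 4 groups. The deposited values are log2 signals per probe set, from 2.27 to 13.97; the log base was inferred from that range. Per the submitters' processing notes the tools were Affymetrix Expression Console 1.1 and PLIER, with no roles given, so the background correction and normalisation by the authors are not given in the sources used here. Probe sets with 1 gene symbol were kept (19181 of 33297, with 2055 of several symbols and 12061 of none). Symbols were updated through Entrez identifiers to RefSeq of GRCh38.p14, and the probe set of highest mean stood for each gene.

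All 17958 genes were fitted with limma 3.58.1 in R 4.3.3, with 1 mean per group, a mean-variance trend and Benjamini-Hochberg adjustment in each comparison, after the scripts were tested on simulated data. Named genes were the 10 largest rises and 10 largest falls among calls whose groups do not overlap in each pairwise comparison, the 8 interaction calls of smallest p, the 10 highest means, 3 genes on each side of the threshold and the genes of the lists. The other interaction calls, genes with promoter matches, members of runs and ZNF394 were chosen after their values were seen. Alternatives covered scaling, trend, probe set rule, thresholds, single arrays left out, replicate and array position as blocks, and the repeated array. The members and lists were chosen with earlier results of these data known. Protein features such as KRAB domains and finger numbers were not analysed here.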

Additional observations from a re-analysis of the deposited data

Results flagged for a closer look

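For 13 members the TNFα effect differed between control siRNA and c-Jun siRNA by limma's interaction term (adjusted p under 0.05). The differences of log2 effects, c-Jun siRNA minus control siRNA, were -0.42 for ZNF618, -0.34 for ZNF35, -0.34 for ZNF827, -0.30 for ZNF106, -0.27 for ZNF655, -0.26 for ZNF532, -0.25 for ZNF267 and -0.22 for ZNF281. ZNF610 (0.37), ZNF93 (0.35), ZNF462 (0.30), ZNF251 (0.25) and ZNF480 (0.20) differed in the positive direction. ZNF532 stands out among the negative ones as a fall with TNFα that was larger with c-Jun siRNA (-0.61) than without (-0.35), whereas ZNF251 and ZNF480 fell with TNFα in control siRNA cells (-0.37 and -0.16) and were not called with c-Jun siRNA (-0.12 and 0.039). Of the 13 calls, those of ZNF618 and ZNF827 held under every alternative listed for the main analysis, the block on array position included.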

How the results depend on the processing

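No call of a named gene changed direction under any alternative that was run. The counts that moved by more than 1.5 times were these. Without limma's mean-variance trend the interaction called 3 members higher and 4 lower, and with only genes of mean 7 or more tested 10 higher. With the position column as a block, TNFα with c-Jun siRNA gave 2 higher and 19 lower, c-Jun siRNA with vehicle 30 lower, and the interaction 0 higher (limma, 15 at an unadjusted p under 0.05) and 2 lower. With the repeated array averaged the interaction gave 3 higher. At an adjusted p under 0.01, TNFα with c-Jun siRNA gave 10 higher, c-Jun siRNA with TNFα 9 higher and 50 lower, and the interaction 1 higher and 4 lower. Chosen after seeing the data, the c-Jun siRNA comparison within position column 5 (vehicle) gave 6 higher and 16 lower. With TNFα, within column 7, it gave 0 higher (limma, 12 at an unadjusted p under 0.05) and 5 lower, and within column 9 it gave 0 higher and 0 lower (17 and 44 at an unadjusted p under 0.05). These fits hold 3 or 4 arrays each, with an arm of 1 array, so their counts say little about the members. Over the named genes, 457 values under an alternative lost their call, 87 gained one and 8948 stayed on their side of the threshold.

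Leaving out 1 array at a time gave 28 to 35 higher and 62 to 74 lower for TNFα with control siRNA, 11 to 20 and 47 to 64 for TNFα with c-Jun siRNA, 11 to 17 and 54 to 70 for c-Jun siRNA with vehicle, 13 to 21 and 63 to 83 for c-Jun siRNA with TNFα, and 2 to 6 and 5 to 8 for the interaction. The replicate numbers do not pair the arrays: deviations from group means correlated at -0.181 to 0.0819 over 18 same-numbered pairs and at -0.18 to 0.188 over 36 others. A replicate block moved 1 count by more than 1.5 times, to 3 higher for the interaction. Of the calls in the 4 pairwise comparisons, 78 of 106, 20 of 82, 37 of 81 and 58 of 100 held under every alternative listed for the main analysis. With 3 arrays a group, the limits lie in the number of arrays and, for dim probe sets, in signal over background, which was not analysed here.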

Other observations

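Probe sets that the probe table gives to several genes, at least 1 of them a ZNF gene, stood outside the members. Of 40 such probe sets 17 had a mean of 7 or more. With TNFα 1 was higher and 3 lower in control siRNA cells and 2 and 4 in c-Jun siRNA cells, and with c-Jun siRNA none was higher while 9 were lower with vehicle and 4 with TNFα (limma, adjusted p under 0.05). These were fitted among all 33297 probe sets, whose shares of calls were not counted. In the main fit the other genes of mean 7 or more were higher and lower in 22% and 34.3%, and 17.9% and 29.4%, with TNFα. With c-Jun siRNA these shares were 24.5% and 23.1% under vehicle and 23.6% and 22.9% under TNFα. The largest differences belonged to the probe set that includes ZNF503, a developmental regulator without KRAB, with -1.12 and -0.94 with TNFα. A probe set shared by ZNF525, ZNF765 and ZNF845 was at -0.51 with c-Jun siRNA and vehicle, and ZNF845's own probe set was at -0.32. With c-Jun siRNA and TNFα the shared probe set was not called (-0.041), whereas ZNF845's own was at -0.36. The shared probe set was also called higher with TNFα in c-Jun siRNA cells (0.32).

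The 198 ZNF genes under a mean of 7 counted 4 higher and 46 lower with TNFα and control siRNA, 4 and 33 with TNFα and c-Jun siRNA, 8 and 19 with c-Jun siRNA and vehicle, and 10 and 14 with c-Jun siRNA and TNFα. Of the 8834 other genes under 7, 6.06% were higher and 9.40% lower in the first of these comparisons, 5.17% and 7.15% in the next, 4.83% and 5.73% with c-Jun siRNA and vehicle, and 5.16% and 5.59% with c-Jun siRNA and TNFα, against 2.02% and 23.2%, 2.02% and 16.7%, 4.04% and 9.60%, and 5.05% and 7.07% of the ZNF genes. Among the other zinc finger families, KLF5, a factor of epithelial cells, rose with TNFα under both siRNAs (1.56 control, 0.60 c-Jun), and ZFP36, which degrades inflammatory messenger RNAs, rose by 1.001 and 0.95.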
